A study of Homo sapiens with 60 samples.

Results

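VEGFA, VEGFC, ANGPTL4, ADM and ESM1 are 5 genes for secreted factors that act on blood or lymphatic vessels, and they were taken by symbol from the 57665 genes of the deposited table. They were chosen by symbol with their levels and fold changes over the doses and times of these libraries already known, so their values are given below as a description, with a standard error (SE) and no test; counts of edgeR calls among them are given once, as counts from which nothing is read. Of the 5 genes, 4 passed the filter on low counts, which kept 18040 genes, and ANGPTL4 did not. VEGFA was the most abundant of the 5, at 47.2 to 212 TPM (a level per transcript length, scaled to the same total in every library) over 60 libraries. It was above every untreated library in 16 of the 18 treated conditions. By condition, 11.2% to 34.2% of all tested genes lay above them in that way. VEGFC passed through a peak at 4 to 8 h and was back among the untreated values by 24 h. ESM1 moved in opposite directions at the lowest and highest dose. ADM was below every untreated library in 6 of the 18 conditions, in which 3.68% to 23.7% of all tested genes were also below. ANGPTL4 was near the limit of detection throughout.

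RNA was measured in U2OS, an established human osteosarcoma cell line, and every culture, untreated ones included, carried Dmr-PERK, a fusion of the mouse PERK kinase domain with a domain (DmrB) that pairs up when the small molecule AP20187 is added. PERK phosphorylates the translation initiation factor eIF2 alpha, which lowers protein synthesis and raises production of the transcription factor ATF4, the core of the integrated stress response (ISR). The treated groups received AP20187, called the dimerizer, at 0.01, 0.2 or 3 nM, and cells were taken after 1, 2, 4 and 8 h and after 16 and 24 h, with 3 libraries in each of the 18 combinations. The middle dose is written 0.2 nM here, as in the series text, although the sample labels give it to 3 decimals, just below that. The reference was 6 untreated libraries labelled 0 h, in 2 sets of 3. The labels tied neither untreated set to a dose, gave no untreated culture for each time, and did not say whether replicates were separate cultures, so the spread between libraries may be technical. With untreated cells at 0 h only, dimerizer and time in culture cannot be told apart in any change from untreated or over time given below. Only doses compared at the same time share the time in culture. In bulk RNA, fewer expressing cells and less RNA per cell cannot be told apart.

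VEGFA is the main growth and permeability factor of vascular endothelium and signals through the receptors KDR and FLT1. VEGFC acts mainly on lymphatic endothelium through FLT4. Adrenomedullin, the product of ADM, is a vasodilator peptide that signals through CALCRL paired with a RAMP protein. ANGPTL4 inhibits lipoprotein lipase and affects vessel permeability, and ESM1 encodes endocan, a secreted proteoglycan known mostly from endothelial cells. VEGFA, ADM and ANGPTL4 are classical targets of the hypoxia-inducible factors (HIF), ANGPTL4 is also a target of PPAR receptors, and VEGFA is known to be raised by ATF4 under endoplasmic reticulum stress and amino acid shortage.

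On GRCh38, GENCODE 29 places VEGFA on the plus strand of chromosome 6 (43770184 to 43786487) with 32 transcripts, 26 of them coding. VEGFC lies on the minus strand of chromosome 4 (176683538 to 176792727), ANGPTL4 on the plus strand of chromosome 19 (8363289 to 8374373) and ADM on the plus strand of chromosome 11 (10304680 to 10307397). ESM1 lies on the minus strand of chromosome 5 (54977864 to 55022671), where the noncoding gene AC034238.1 overlaps it on the same strand, so the estimate may share reads between them and the ESM1 level is uncertain to that extent. Antisense genes overlap VEGFA, VEGFC and ANGPTL4, and whether counting used strand is not given in the sources used here.

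The promoters of ESM1 and VEGFC are printed because ESM1 changed direction with dose and VEGFC passed through a peak, and both are given 5′ to 3′ on the gene's own strand as the 250 bases before the RefSeq start (build GRCh38.p14). Capitals mark the short cores of the hypoxia response element, ACGTG and GCGTG, on either strand.
ESM1, chr5:54985594-54985843, minus strand: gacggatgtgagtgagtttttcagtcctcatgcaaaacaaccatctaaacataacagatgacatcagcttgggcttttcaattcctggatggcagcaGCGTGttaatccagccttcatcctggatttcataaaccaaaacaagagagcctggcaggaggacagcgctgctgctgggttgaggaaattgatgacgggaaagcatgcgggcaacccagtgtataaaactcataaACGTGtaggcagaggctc
VEGFC, chr4:176792923-176793172, minus strand: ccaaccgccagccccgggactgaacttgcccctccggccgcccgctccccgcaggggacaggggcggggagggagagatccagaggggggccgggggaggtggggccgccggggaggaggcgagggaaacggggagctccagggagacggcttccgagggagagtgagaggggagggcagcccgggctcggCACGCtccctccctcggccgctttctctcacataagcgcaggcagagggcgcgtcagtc
ESM1 held GCGTG at −153 and ACGTG at −18, counted from the start, and VEGFC held GCGTG at −59 on the opposite strand. Of the other members with a promoter entry, ADM held GCGTG at −101 and ANGPTL4 held ACGTG at −234 on the opposite strand. These short cores are common: ACGTG was found in 18.5% and GCGTG in 32.2% of 35116 promoters of the same length. Also searched on both strands were TGATGNAA, the core that ATF4 binds with a C/EBP partner (in 3.14% of promoters), TGACGTCA, the cyclic AMP response element (1.65%), TGANTCA, the AP-1 site (6.57%), and TTGCNNAA, a C/EBP site (9.05%). None of these letters was in the window of ESM1, VEGFC, ADM or ANGPTL4. The windows of ESM1, ADM and ANGPTL4 lay inside the GENCODE spans given above, since the RefSeq starts differ from the outermost GENCODE starts. That of VEGFC lay outside its span. Other starts of these genes were not searched. The window of VEGFC was 74% G and C and that of ESM1 47.6%, against a median of 58% over all promoters.

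Total counts were 5598803 to 10367667 in 39 libraries (untreated set 1, 0.01 nM and 0.2 nM) and 20713981 to 28436445 in the other 21 (untreated set 2 and 3 nM), so the 3 nM dose and untreated set 2 shared a depth that the other groups did not. Mitochondrially encoded RNA took 10.5% ± 0.7 of counts in untreated set 1, 5.49% ± 0.0755 in untreated set 2 and 4.18% to 6.58% in the treated groups (mean, SD, n = 3). Untreated set 1 thus stood apart, and folds at 24 h against each untreated set alone are given where a call was lost or gained or the set moved the value by over 1.5 times. A pair of libraries also stood apart from their fellows: the chi-square per degree of freedom of their counts was 21.2 and 21.9 for 3 nM 4 h replicate 1 and 9.03 and 7.71 for 3 nM 2 h replicate 3, against 1.37 to 3.17 in all pairs without them. Without 3 nM 4 h replicate 1 the log2 fold change at 3 nM 4 h was 1.52 for VEGFA (1.53 with it), 0.52 for VEGFC (0.54), −1.20 for ESM1 (−1.02) and −1.06 for ADM (−1.01). Without 3 nM 2 h replicate 3 that at 3 nM 2 h was 0.85 for VEGFA (0.83 with it), −0.16 for VEGFC (−0.15), −0.77 for ESM1 (−0.96) and −0.97 for ADM (−0.91). The line's mesenchymal markers were abundant (VIM at 1094 ± 3.41 TPM at 3 nM 24 h, 2836 ± 32.3 in untreated set 1 and 2783 ± 20.5 in set 2), and COL1A1, SPARC and RUNX2 were expressed. TWIST1 was at 0 counts in untreated cells. Of the 6 markers of this list, ALPL included, 5 were tested. At 3 nM 24 h 4 of them were lower and 1 higher, each at least 2-fold, with a median log2 fold change of −1.80. Their summed level was 1589 TPM at 3 nM 24 h, against 5288 and 4884 TPM in untreated sets 1 and 2. The part of this in the results was not tested. The endothelial marker CDH5 had at most 10 counts in an untreated library, and the leukocyte markers PTPRC and CD3E at most 24 and 2. Of the epithelial markers, KRT18 and KRT8 were abundant, and KRT8 averaged 97.3 ± 1.06 TPM at 3 nM 24 h, against 186 ± 13.1 and 289.5 ± 2.93 TPM in untreated sets 1 and 2. EPCAM and CDH1 were at 3.06 and 2.67 TPM at 3 nM 24 h, against 3.71 and 1.78 TPM in untreated set 1 and 5.14 and 3.10 TPM in set 2, and the part of these in the results was not tested. Of 6 endothelial markers 4 could be tested, and at 3 nM 24 h ERG (0.48) and CLDN5 (0.81) were higher, VWF (−3.61) lower and PECAM1 (−0.39) did not pass; their summed level was 5.65 to 7.6 TPM over the 3 nM groups and 3.95 and 7.28 TPM in untreated sets 1 and 2, and their part in the results on ESM1 was not tested. Of 18040 genes tested with edgeR's quasi-likelihood test, 13913 (77.1%) passed an adjusted p of 0.05 at 3 nM 24 h, of which 7413 were higher and 6500 lower.

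**Figure D1:**
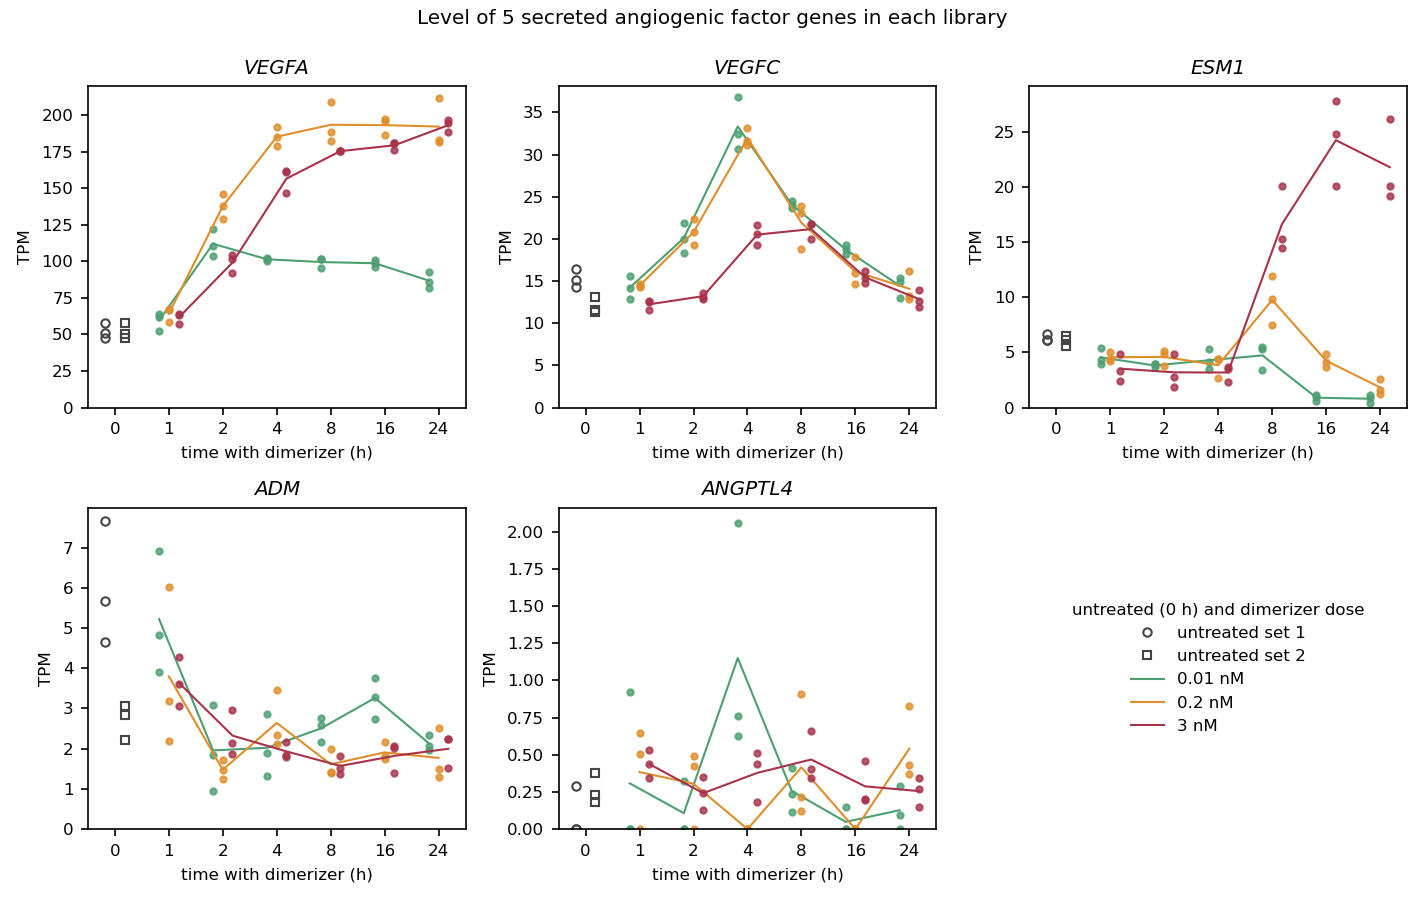
TPM of the 5 genes in each of the 60 libraries, by time with dimerizer (h, 0 for untreated), with a line through the mean of the 3 libraries of each dose; the vertical scales differ between panels. VEGFA reached 182 to 212 TPM at 0.2 nM and 188 to 197 TPM at 3 nM by 24 h, VEGFC peaked at 4 to 8 h, and ESM1 at 24 h was 19.2 to 26.2 TPM at 3 nM and 0.42 to 1.1 TPM at 0.01 nM.

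VEGFA RNA was raised at all 3 doses, and its level from 4 h on separated the lowest dose from the other 2. At 24 h the 3 libraries at 3 nM had 188, 194 and 197 TPM and those at 0.2 nM had 212, 182 and 183 TPM. At 0.01 nM they had 92.6, 82 and 85.8 TPM, against 57.5, 51.2 and 47.2 TPM in untreated set 1 and 57.8, 47.3 and 50.2 TPM in untreated set 2. All treated libraries at 24 h were above all 6 untreated ones, the higher 2 doses overlapped each other, and the lowest dose lay between them and the untreated cells. By the share of all tested genes, a gene whose 3 libraries were all above the 6 untreated ones was not rare. At 1, 2, 4, 8, 16 and 24 h this held for 11.2%, 17.1%, 21.3%, 21.7%, 20.5% and 19.7% of tested genes at 0.01 nM. The same times gave 19.1%, 21.8%, 27.4%, 29.5%, 29.9% and 29.1% at 0.2 nM, and 20.8%, 19.8%, 22.6%, 33.1%, 31.9% and 34.2% at 3 nM. In counts, the log2 fold change at 24 h was 1.70 (SE 0.0327) at 3 nM, 1.57 (SE 0.0349) at 0.2 nM and 0.31 (SE 0.0399) at 0.01 nM. Against untreated set 2 alone these were 1.80, 1.67 and 0.41, and against set 1 alone 1.61, 1.47 and 0.21.

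VEGFA was at most slightly raised at 1 h and was above the untreated libraries at every dose by 2 h. At 1 h it averaged 59.6 ± 6.4 TPM at 0.01 nM, 64.3 ± 4.84 at 0.2 nM and 61.4 ± 3.55 at 3 nM (SD, n = 3), and the libraries at 0.01 and 3 nM overlapped the untreated ones. The 3 libraries at 0.2 nM at 1 h were all above the untreated ones, the lowest at 58.7 TPM against an untreated maximum of 57.8 TPM, as were 19.1% of tested genes. At 2 h the level was 112 ± 9.3 TPM at 0.01 nM, 138 ± 8.43 at 0.2 nM and 99.1 ± 6.43 at 3 nM, so the dose order at that time did not follow the dose. The 3 libraries at 3 nM (101, 104 and 91.9 TPM) were all below the 3 at 0.2 nM (138, 129 and 146 TPM). How many of all tested genes were separated between these 2 doses was not counted, and the doses differ in depth. In counts, the log2 ratio at 2 h of 3 nM over 0.2 nM was −0.40 (SE 0.0395). It was −0.14 (SE 0.0376) at 4 h, −0.13 (SE 0.0376) at 8 h, 0.04 (SE 0.0379) at 16 h and 0.14 (SE 0.0371) at 24 h. The difference of untreated set 2 over set 1, which have the depths of these 2 doses, was −0.20 (SE 0.0457) on the same scale, and its part in the dose differences was not tested.

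After the initial rise the 3 doses held different courses. At 0.01 nM VEGFA was highest at 2 h and lower afterwards, at 101 ± 1.19 TPM at 4 h, 99.5 ± 3.52 at 8 h, 98.7 ± 2.37 at 16 h and 86.8 ± 5.39 at 24 h. At 0.2 nM it stayed level from 4 h, at 185 ± 6.45, 193 ± 14, 193 ± 5.87 and 192 ± 16.9 TPM at 4, 8, 16 and 24 h. At 3 nM it went on upwards, at 157 ± 8.76, 175 ± 0.0515, 179 ± 3.06 and 193 ± 4.46 TPM at the same times. The log2 fold change of counts, 24 h over 4 h, was −0.45 (SE 0.0457) at 0.01 nM, −0.11 (SE 0.0391) at 0.2 nM and 0.17 (SE 0.0355) at 3 nM. Ranked over the 20 groups, 12 of the 19 neighbouring pairs of VEGFA levels overlapped between libraries. The 6 highest groups (0.2 nM at 4, 8, 16 and 24 h and 3 nM at 16 and 24 h) each overlapped the next of them, as did 0.01 nM at 4, 8 and 16 h with 3 nM at 2 h, and the 1 h groups with the untreated sets.

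The fold of VEGFA depended on whether counts or TPM were read, at the late times and also between the untreated sets. In TPM the sets were alike (52.0 in set 1 and 51.8 in set 2), while in counts set 2 was lower, as given above. At 0.01 nM 24 h its mean TPM was 1.67-fold the untreated mean, while the log2 fold change of counts was 0.31. Dividing counts by TPM gives a number that follows the effective length of the transcripts estimated to be present. Scaled by the median gene of each library and set to 1 in untreated cells, this index for VEGFA was 0.826 ± 0.0276 at 0.01 nM 16 h and 0.831 ± 0.0204 at 0.01 nM 24 h (SD, n = 3). The 6 untreated libraries spanned 0.930 to 1.11, and none of the 6 treated libraries reached that range. At 0.2 nM 16 h the index was 0.895 ± 0.0154, also below every untreated library. At 0.2 nM 24 h and at 3 nM 16 and 24 h it averaged 0.899, 0.915 and 0.928, and those libraries overlapped the untreated range. Of 11669 genes with at least 20 counts in every library, 2.13% at 0.01 nM 16 h and 1.80% at 24 h had a mean index at or below that of VEGFA, and 2.36% and 2.20% lay below all untreated libraries. At 0.2 nM 16 h 8.03% had a mean index at or below that of VEGFA, and 2.88% lay below all untreated libraries. The VEGFC index stayed between 0.994 and 1.04 in all groups. GENCODE 29 gives VEGFC 2 transcripts, 1 of them coding, so its index has less room to move than that of VEGFA. It was above its untreated range of 0.983 to 1.01 at 0.01 nM 2, 4 and 16 h, 0.2 nM 16 and 24 h and 3 nM 24 h. In those groups 16.1% to 19.2% of the 11669 genes were also above. For VEGFA the index was 0.985 in untreated set 1 and 1.02 in set 2. Being scaled by the median gene, the index leaves out any gap between counts and TPM that all genes of a library share. How much of the VEGFA gap is of that kind was not tested. Which VEGFA transcripts were present was not tested either, since only gene totals were used here.

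**Figure D2:**
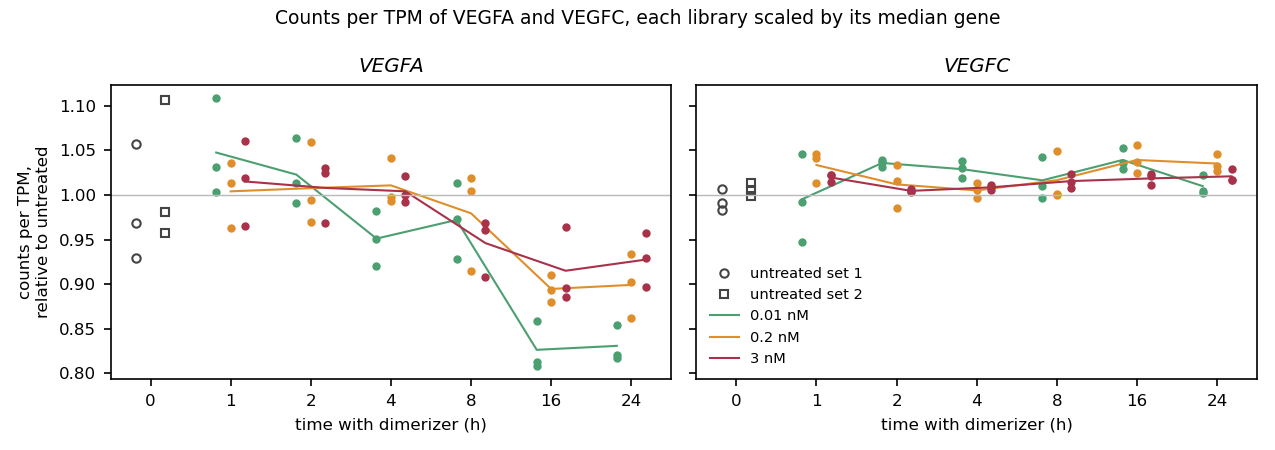
Estimated counts per TPM of VEGFA (left) and VEGFC (right) in each library, divided by the value of the library's median gene and by the untreated mean, by time with dimerizer (h); points are libraries and lines join the means of 3. VEGFA drops to 0.826 and 0.831 at 0.01 nM at 16 and 24 h, below the untreated range of 0.930 to 1.11. VEGFC, with 1 coding transcript, has group means of 0.994 to 1.04.

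Of 12189 genes with a mean of at least 5 CPM (counts scaled to library size), those whose log2 levels followed VEGFA most closely over the 20 group means were SLC7A1 (Pearson r = 0.97), SLC35E1 (r = 0.97) and SIAH2 (r = 0.96). With the ISR genes TRIB3 and ATF4 the same r was 0.94 and 0.91, with CHAC1 0.89, with ASNS 0.82 and with DDIT3 0.55. The 20 means share their scaling, and the 7 deeper groups share a depth, so these are descriptions. Among the members, r of VEGFA was −0.75 with ADM, 0.39 with VEGFC and 0.34 with ESM1.

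VEGFC was raised for a limited time, and the highest dose had the lowest peak. At 4 h the 3 libraries at 0.01 nM had 30.7, 36.9 and 32.4 TPM, those at 0.2 nM had 33.2, 31.1 and 31.7 TPM and those at 3 nM had 19.3, 20.6 and 21.6 TPM, against 16.4, 15.1 and 14.3 TPM in untreated set 1 and 13.1, 11.3 and 11.6 TPM in set 2. The 2 lower doses overlapped each other at 4 h, both were above all libraries at 3 nM, and all 9 treated libraries were above all 6 untreated ones. The share of all tested genes above all 6 untreated libraries at 4 h was 21.3% at 0.01 nM, 27.4% at 0.2 nM and 22.6% at 3 nM. The share separated between doses was not counted. By counts, the log2 fold change at 4 h was 1.20 (SE 0.0690) at 0.01 nM, 1.06 (SE 0.0692) at 0.2 nM and 0.54 (SE 0.0602) at 3 nM.

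The untreated sets differed in VEGFC by about as much as the doses did. The log2 fold change of counts of untreated set 2 over set 1 was −0.56 (SE 0.0851), and that of 3 nM over 0.2 nM at 4 h was −0.53 (SE 0.0702). Against the untreated set of like depth, the value at 4 h was 0.82 (SE 0.0663) at 3 nM over set 2, 0.78 (SE 0.0853) at 0.2 nM over set 1 and 0.92 (SE 0.0849) at 0.01 nM over set 1. With the sets read in that way the 3 doses lay close together at 4 h. The labels do not tie a set to a dose, so the dose and the set cannot be told apart for VEGFC.

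VEGFC then returned to the untreated range. At 0.01 nM it averaged 14.2 ± 1.37, 20.1 ± 1.81, 33.3 ± 3.17, 24.1 ± 0.428, 18.8 ± 0.519 and 14.5 ± 1.27 TPM at 1, 2, 4 and 8 h and at 16 and 24 h (SD, n = 3). At 0.2 nM the same times gave 14.5 ± 0.220, 20.8 ± 1.56, 32 ± 1.06, 21.9 ± 2.73, 16.1 ± 1.58 and 14.1 ± 1.82 TPM. At 3 nM they gave 12.3 ± 0.585, 13.2 ± 0.309, 20.5 ± 1.15, 21.2 ± 0.988, 15.5 ± 0.760 and 12.9 ± 1.01 TPM, so the 2 h groups of the lower doses were above the untreated libraries and that of 3 nM was not. VEGFC was above all 6 untreated libraries in 9 of 18 conditions and overlapped them in the other 9, and in no condition was it below them all. At 24 h the log2 fold change was −0.14 (SE 0.0649) at 3 nM, −0.06 (SE 0.0781) at 0.2 nM and −0.06 (SE 0.0802) at 0.01 nM. The 24 h values were negative against set 1 alone (−0.42, −0.34 and −0.34 at 3, 0.2 and 0.01 nM) and positive against set 2 alone (0.14, 0.22 and 0.22), so no direction at 24 h is given. Of the 19 neighbouring pairs in the order of levels, 17 overlapped. The genes closest to VEGFC over the 20 group means were TSPAN5 (r = 0.91), DUSP7 (r = 0.91) and MAP6D1 (r = 0.90).

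ESM1 had the widest range of the 4 genes tested, 30.3-fold between its highest and lowest group mean, and its late level went in opposite directions by dose. At 24 h the 3 libraries at 3 nM had 26.2, 20.1 and 19.2 TPM, those at 0.2 nM had 2.62, 1.61 and 1.25 TPM and those at 0.01 nM had 0.879, 0.42 and 1.1 TPM, against 6.17, 6.68 and 6.11 TPM in untreated set 1 and 6.11, 6.54 and 5.59 TPM in set 2. Every library at 3 nM was above, and every library at the 2 lower doses below, all 6 untreated ones. The share of tested genes below all untreated libraries at 1 to 24 h was 1.06%, 4.86%, 8.44%, 9.36%, 9.83% and 5.25% at 0.01 nM, in the order of the times. It was 1.02%, 3.68%, 9.9%, 13%, 15.8% and 14.8% at 0.2 nM, and 2.02%, 5.9%, 14.7%, 17.5%, 23.7% and 23.8% at 3 nM. The log2 fold change of counts was 1.61 (SE 0.139) at 3 nM, −2.27 (SE 0.291) at 0.2 nM and −3.44 (SE 0.366) at 0.01 nM. Directly, 3 nM over 0.2 nM at 24 h gave 3.88 (SE 0.252), while untreated set 2 over set 1 gave −0.23 (SE 0.219).

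Over time ESM1 was first lower at every dose and then diverged. At 1 to 4 h all 9 groups lay below the untreated libraries, at means of 3.18 to 4.6 TPM against 6.32 ± 0.311 TPM in untreated set 1 and 6.08 ± 0.478 TPM in set 2 (SD, n = 3). At 8 h the 3 libraries at 3 nM had 15.3, 20.1 and 14.5 TPM and those at 0.2 nM had 9.85, 7.48 and 12 TPM, all above the untreated ones, while those at 0.01 nM had 5.52, 5.31 and 3.38 TPM, all below them. The dose of 0.2 nM crossed the untreated level and came back, and at 16 h it was at 3.71, 4.16 and 4.88 TPM. At 16 h the libraries at 3 nM had 24.9, 20.1 and 27.8 TPM and those at 0.01 nM had 0.94, 1.14 and 0.613 TPM, from 3 to 7 counts each. The log2 fold change of counts, 24 h over 4 h, was 2.63 (SE 0.171) at 3 nM, −1.53 (SE 0.380) at 0.2 nM and −2.86 (SE 0.463) at 0.01 nM. In the order of levels 15 of 19 neighbouring pairs overlapped, and the separations were between 3 nM at 8 h and 0.2 nM at 8 h, either side of the untreated sets, and below 0.2 nM at 24 h. USO1 (r = 0.88), JAK1 (r = 0.86) and UBE2Z (r = 0.85) had the closest patterns over the group means.

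ADM, at 8 to 108 counts per library, was lower in treated cells by counts over the mean of both untreated sets, though not in TPM at 0.01 nM 1 h, and the amount rested on which set was read. At 24 h the libraries at 3 nM had 1.51, 2.25 and 2.24 TPM, those at 0.2 nM had 2.51, 1.5 and 1.29 TPM and those at 0.01 nM had 2.07, 1.98 and 2.35 TPM, against 4.64, 5.67 and 7.66 TPM in untreated set 1 and 2.2, 3.05 and 2.85 TPM in set 2. All 9 were below the 3 libraries of set 1, and 4 of the 9 lay within the range of set 2. Its log2 fold change of counts at 24 h was −1.24 (SE 0.170) at 3 nM, −1.74 (SE 0.223) at 0.2 nM and −0.90 (SE 0.201) at 0.01 nM. It was −1.87, −2.38 and −1.53 at those doses over set 1 alone, and −0.60, −1.11 and −0.26 over set 2 alone. The difference of untreated set 2 over set 1 was −1.27 (SE 0.190), the largest among the members. Set 1 also had the highest share of mitochondrial RNA, and among the genes closest to ADM over the group means (ZBED1, r = 0.84; MT-TP, r = 0.82; PBX3, r = 0.80) was a mitochondrial transfer RNA; the part of this in the result was not tested.

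ADM was below all 6 untreated libraries in 6 of 18 conditions, namely 0.2 nM at 2, 8 and 16 h and 3 nM at 4, 8 and 16 h. The share of all tested genes below in this way ran from 3.68% at 0.2 nM 2 h to 23.7% at 3 nM 16 h. The lowest group mean was 1.47 ± 0.233 TPM at 0.2 nM 2 h and the highest treated one 5.22 ± 1.54 TPM at 0.01 nM 1 h (SD, n = 3). At 1 h, 3 nM gave 4.28, 3.05 and 3.61 TPM and 0.2 nM gave 6.01, 3.19 and 2.19 TPM, overlapping the untreated libraries. All 19 neighbouring pairs in the order of levels overlapped, so no 2 neighbouring groups were separate for ADM.

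ANGPTL4 gave 0 to 10 counts per library, with 0 in 17 of 60 libraries, and was too low for the filter. Pooled over 3 libraries it had 13 counts at 3 nM 24 h (0.178 CPM, 95% interval 0.0947 to 0.304, exact Poisson) and 7 counts at 0.2 nM 24 h (0.255, 0.103 to 0.526), against 11 counts in the 6 untreated libraries (0.113, 0.0565 to 0.203). These intervals cover counting error only, and they overlap. At 0.2 nM 4 h and 16 h no count was seen, which allows up to 0.130 and 0.136 CPM by a floor of 3 counts, and up to 0.159 and 0.167 CPM by the exact Poisson interval. At 0.01 nM 4 h the libraries had 1, 5 and 3 counts (0.629, 2.06 and 0.763 TPM), all above the untreated ones, a pooled 0.420 CPM (0.192 to 0.798), as were 21.3% of tested genes in that condition. At 24 h a change of ANGPTL4 was not detectable at this depth, and all 19 neighbouring pairs of its levels overlapped.

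**Figure D3:**
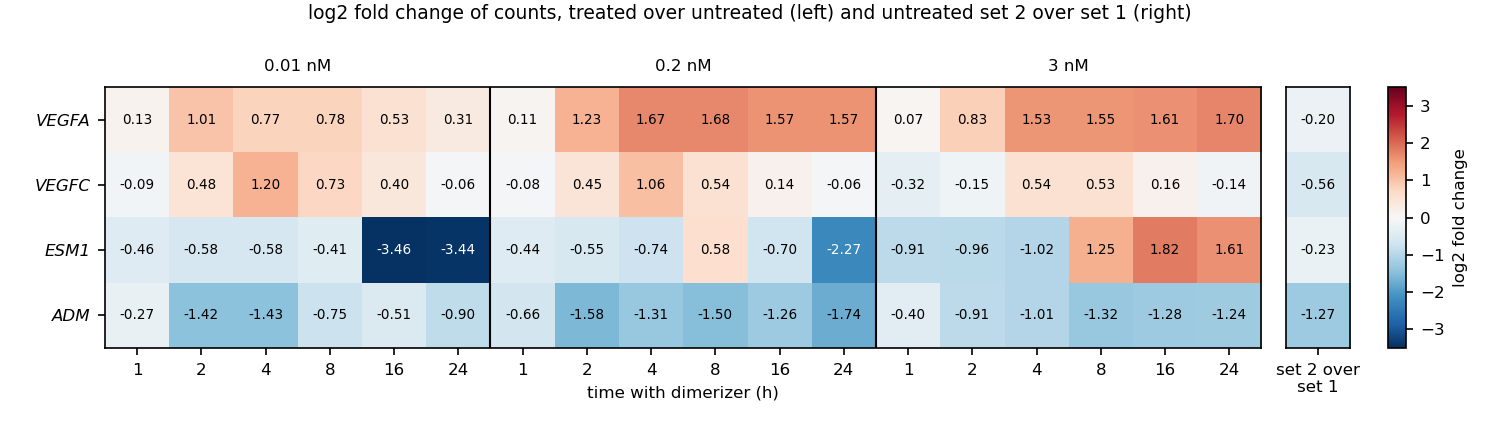
Log2 fold change of counts of the 4 genes above the low-count filter, treated over the mean of both untreated sets, by dose and time (h), and on the right untreated set 2 over set 1; red is higher and blue lower, with the value printed in each cell. VEGFA is red from 2 h at all doses. VEGFC is red at 4 and 8 h at all doses, and also at 2 h at 0.01 and 0.2 nM. ESM1 changes colour with dose at 8, 16 and 24 h. ADM is blue in all 18 conditions and also between the untreated sets. Over untreated set 2 alone ADM was 0.37 and 0.12 at 0.01 nM 1 and 16 h and 0.23 at 3 nM 1 h.

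By the same edgeR test that calls other genes, 2 of the 4 members tested were higher and 1 lower at 3 nM 24 h, where 77.1% of all genes passed, and 1 was higher and 2 lower at 0.2 nM 24 h, where 65.5% passed. At 0.01 nM 24 h 1 was higher and 2 lower (43.2% of all genes passed). At 4 h 2 were higher and 2 lower at 3 nM, at 0.2 nM and at 0.01 nM, where 66.8%, 59.3% and 52% of all genes passed. Between doses at 24 h, 2 were higher and none lower at 3 over 0.2 nM (56.1% passed), and 1 was higher and 1 lower at 0.2 over 0.01 nM (51.5%). Of untreated set 2 over set 1, 3 of the 4 were lower and none higher, where 28.9% of all genes passed. Since the members were picked with these contrasts known, nothing is read from these counts.

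Other genes of vessel growth, in 7 lists by role, were more often lower than higher at 3 nM 24 h. Of their 56 measured genes 47 were tested, and 11 passed as higher and 31 as lower, with a median log2 fold change of −1.16. Over all genes tested 77.1% passed at 3 nM 24 h, 41.1% as higher and 36.0% as lower, with a median of 0.05, and the counts of each list at this time stand against those shares. At 3 nM 4 h 66.8% of all genes passed, 34.9% as higher and 31.9% as lower. At 0.2 nM 24 h 65.5% passed, 34.3% as higher and 31.2% as lower. With the lists of HIF, PPAR, lipase and ISR genes added, 102 genes were measured and 82 tested, of which 27 passed as higher and 45 as lower. The other VEGF ligands both fell: VEGFB by 1.24 (SE 0.0442) and PGF, the placental growth factor, by 1.33 (SE 0.151) on the log2 scale at 3 nM 24 h. VEGFB, which signals through FLT1, averaged 48.4 ± 2.31 TPM at 3 nM 24 h, against 103 ± 0.657 TPM in untreated set 1 and 111 ± 2.49 TPM in set 2 (SD, n = 3). In TPM, VEGFA was above VEGFB at 3 nM 24 h, and VEGFB was above VEGFA in untreated cells. VEGFD, a ligand of FLT4, had at most 18 counts in a library and was not tested.

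Among receptors, KDR, the main signalling receptor for VEGFA, had at most 7 counts in an untreated library and was not tested. The VEGFC receptor FLT4 fell by 2.23 (SE 0.118) at 3 nM 24 h and the co-receptor NRP2 by 2.10 (SE 0.324) on the log2 scale, while the co-receptor NRP1 rose by 0.43 (SE 0.0625; 0.22 over set 1 alone and 0.64 over set 2 alone). NRP1 was lower at 4 h of the same dose, at −1.04. FLT1, which also binds VEGFA, fell by 0.87 (SE 0.285), a result that was lost against untreated set 1 alone (−0.69, adjusted p = 0.0985, edgeR quasi-likelihood test). All 5 genes of the list were measured, 4 were tested, and 1 rose and 3 fell.

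In the list of adrenomedullin relatives, receptors and processing genes, 1 of 5 tested rose, a related peptide, and 4 fell at 3 nM 24 h. ADM2, which encodes the related peptide intermedin, rose by 2.09 (SE 0.0513) and averaged 30.9 ± 0.960 TPM at 3 nM 24 h, against 7.05 ± 1.44 TPM in untreated set 1 and 7.31 ± 0.654 TPM in set 2. ACKR3, a receptor that takes up adrenomedullin and the chemokine CXCL12, fell by 5.88 (SE 0.157), to 0.529 ± 0.216 TPM at 3 nM 24 h against 25.2 ± 2.75 and 28.4 ± 3.13 TPM in untreated sets 1 and 2. PAM, the enzyme that amidates adrenomedullin, fell by 0.72 (SE 0.0312), and RAMP2 by 0.46 (SE 0.210), a call that was lost against untreated set 2 alone (−0.17, adjusted p = 0.502, edgeR). ADM5, at −0.44 (SE 0.118), was lost against untreated set 1 alone (−0.33, adjusted p = 0.0517, edgeR). CALCRL, RAMP1 and RAMP3 were too low to test.

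Genes that process VEGFC were divided, with 2 of 5 tested higher and 2 lower. CCBE1, the secreted cofactor of VEGFC cleavage, fell by 1.90 (SE 0.0753) and the protease gene FURIN by 0.21 (SE 0.0275; −0.32 over set 1 alone and −0.11 over set 2 alone), whereas the convertase genes PCSK7 and PCSK5 rose by 0.68 (SE 0.0408) and 0.39 (SE 0.0858). PCSK5 was higher only over untreated set 1, at 0.85, and was −0.07 over set 2. ADAMTS3, the protease that cleaves VEGFC, did not pass, at 0.05 (SE 0.0552), but was higher over set 1 alone (0.18, adjusted p = 0.0302, edgeR).

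Of the 4 tested genes of the angiopoietin list, 3 rose and 1 fell at 3 nM 24 h. ANGPT4, a ligand of the receptor TEK, rose by 3.78 (SE 0.135), to 4.35 ± 0.233 TPM at 3 nM 24 h against 0.225 ± 0.0583 and 0.414 ± 0.0930 TPM in untreated sets 1 and 2. ANGPT1, the main agonist of TEK, rose by 1.13 (SE 0.134), an amount that was 1.60 over untreated set 1 alone and 0.66 over set 2 alone. TIE1 rose by 1.72 (SE 0.403), while TEK itself fell by 1.38 (SE 0.335). TIE1 and TEK were low, at 4 to 47 counts in the libraries of untreated set 2. ANGPT2 was too low to test.

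Of 15 other secreted angiogenic factors tested, 3 rose, 9 fell and 3 did not pass at 3 nM 24 h, with a median of −1.56. FGF2, a growth factor for endothelium and many other cells, rose by 1.70 (SE 0.0591). Falls were PDGFB, which recruits pericytes, by 5.02 (SE 0.273), PTN (pleiotrophin) by 3.20 (SE 0.165), ANG (angiogenin) by 3.02 (SE 0.184) and EDN1, the precursor of the vasoconstrictor endothelin, by 2.91 (SE 0.0736). PDGFB averaged 0.106 ± 0.0758 TPM at 3 nM 24 h, against 2.52 ± 0.338 and 3.05 ± 0.485 TPM in untreated sets 1 and 2. At 3 nM 4 h this list was even, with 5 higher and 6 lower of 15, a median of −0.22, and PDGFB at 0.42.

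Most listed inhibitors of angiogenesis were lower at 24 h, by least at the lowest dose. Of the 12 tested, 1 rose and 10 fell at 3 nM 24 h, 9 of them at least 2-fold, with a median log2 fold change of −2.37, against 0.05 over all genes tested. VASH2 fell by 4.22 (SE 0.177), VASH1, a vasohibin made as a feedback inhibitor of angiogenesis, by 3.20 (SE 0.0665), THBS1, the matrix inhibitor thrombospondin-1, by 3.65 (SE 0.0580) and SEMA3F, a semaphorin that competes at neuropilins, by 3.39 (SE 0.0636). VASH2 is known as a promoter of angiogenesis in spite of its place in this list. THBS1 averaged 25.7 ± 2.35 TPM at 3 nM 24 h, against 327 ± 30.7 and 324 ± 3.29 TPM in untreated sets 1 and 2. At 3 nM 4 h 10 of 12 were also lower but by less, with a median of −0.50 and 1 at least 2-fold. Leaving out replicate 1 of 3 nM 4 h left 8 of the 12 lower, and leaving out replicate 2 left 6. At 0.2 nM 24 h 9 fell and 1 rose, with a median of −1.53. At 0.01 nM 24 h 8 fell and 0 rose, with a median of −0.33, where 22.2% of all tested genes were lower and 21.0% higher. At 0.01 nM 4 h only 4 of the 12 fell and 2 rose, with a median of −0.05, where 26.1% of all tested genes were lower and 25.9% higher. ISM1, the one that rose at 3 nM 24 h (0.66, SE 0.219), and SEMA3A, among those that fell (−0.50, SE 0.213), were lost against untreated set 1 alone (0.49 and −0.34, adjusted p = 0.124 and 0.274, edgeR).

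**Figure D4:**
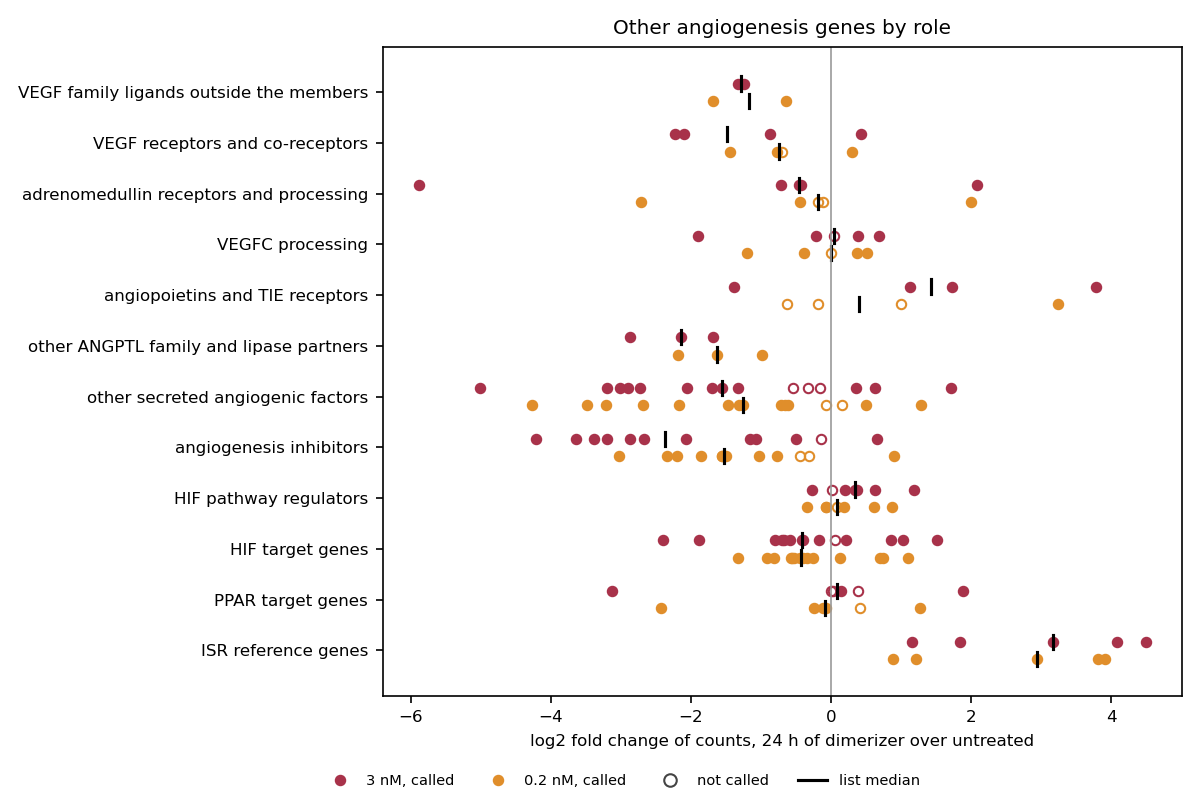
Log2 fold change of counts at 24 h, 3 nM (upper row of each list) and 0.2 nM (lower row) over untreated, for each tested gene of 12 lists by role; filled points passed an edgeR adjusted p of 0.05 and black bars are list medians. The inhibitors and the other secreted factors lie mostly left of 0 (medians −2.37 and −1.56 at 3 nM), and the ISR genes lie to the right.

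HIF target genes did not move as a group with VEGFA. Of 14 tested, 4 rose and 9 fell at 3 nM 24 h, with a median of −0.41. PDK1 and BNIP3 rose by 1.52 (SE 0.0606) and 1.02 (SE 0.0527), while EGLN3, the HIF prolyl hydroxylase most induced by hypoxia, fell by 2.40 (SE 0.169) and the glycolytic regulator PFKFB4 by 1.88 (SE 0.11). The glucose transporter gene SLC2A1 and LDHA, both chosen after their values were seen, were among the 9 that fell, at −0.42 and −0.67. At least 2-fold were 2 of the 4 that rose and 2 of the 9 that fell. The part of HIF in the VEGFA level was not tested. CA9 was too low to test. Of 7 HIF pathway regulators 5 rose and 1 fell, and the only one past 2-fold was VHL, whose product marks HIF for degradation, at 1.19 (SE 0.0405). HIF1A was at 0.35 and EPAS1 at 0.62.

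PPAR targets and lipase partners, set beside ANGPTL4, were mixed. PDK4 fell by 3.13 (SE 0.351) and the lipid droplet gene PLIN2 rose by 1.88 (SE 0.0564), and of the 6 PPAR targets tested 2 rose and 1 fell. LPL, the lipase that ANGPTL4 inhibits, fell by 2.14 (SE 0.270), and ANGPTL2 by 2.87 (SE 0.114) and the lipase maturation gene LMF1 by 1.68 (SE 0.364), so all 3 tested genes of that list were lower. The ISR genes ATF4, DDIT3, ASNS, TRIB3 and CHAC1 all rose at 3 nM 24 h, by 1.16, 1.84, 3.16, 4.49 and 4.08.

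The count fold of VEGFA was larger than that of ATF4 at 3 nM 24 h (1.70 beside 1.16) and smaller than that of ASNS, TRIB3 and CHAC1. Relative to its untreated mean of 51.9 TPM, VEGFA reached 3.72-fold at 3 nM 24 h and 3.70-fold at 0.2 nM 24 h. Per length, its 193 ± 4.46 TPM at 3 nM 24 h compared with 811 ± 2.74 TPM of ATF4 and 344 ± 11.7 TPM of TRIB3 in the same libraries.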

How the data were processed

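RNA sequencing of 60 libraries was read from 2 tables that the authors deposited: estimated counts per gene, and TPM per gene. The submitters' processing notes name Salmon 0.9.1, FastQC 0.11.5 and the build GRCh38 without giving their roles, and name no annotation release. The authors' deposited estimated counts need not be whole (54.2% of the nonzero ones were, to 1e-06), and each was rounded before the fit. No column was left without a sample (0 of them). Gene positions come from GENCODE 29, matched by identifier for 57068 of 57665 genes, and promoter sequences from RefSeq, found for 4 of the 5 members.

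Counts were fitted in R 4.3.3 with edgeR 4.0.16: filterByExpr on the 20 groups, TMM scaling, 1 quasi-likelihood model over all groups with 40 residual degrees of freedom, 49 contrasts, and Benjamini-Hochberg adjustment over the 18040 genes kept. The reference was the mean of both untreated sets. "Rose" and "fell" of a gene outside the members mean an adjusted p under 0.05 in this test. The SE of a log2 fold change is the one implied by the F statistic. The fit was tried on simulated data with known fold changes for 3 nM 24 h against untreated. It recovered 88% of 2-fold changes, and 5.39% of its calls were false. The simulation used the spread estimated by the fit and no difference between the untreated sets, which in the data differed in 28.9% of genes. It therefore does not cover error from that difference. Total counts were 5598803 to 28436445 per library, and a floor of 3 counts was at most 0.536 CPM (counts scaled to library size). Reads carry no molecular identifiers, so counting intervals cover counting error only.

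The members and the gene lists were chosen with earlier results of these data known. Of each list, values were given for up to 4 genes with the largest change among those that passed at 3 nM 24 h or 4 h, for receptors and ligands near 0, for the ISR genes, and for the 3 genes most like each member. ADM5, FURIN, FGF2, ISM1, SEMA3A, SLC2A1, LDHA, HIF1A and the cell type markers carry values, fall outside that rule and were chosen after their values were seen. Alternatives tried were each untreated set alone, RLE size factors, no filter, DESeq2 1.42.0, limma 3.58.1 on log2(TPM + 0.1) and on log2(TPM + 1), a fit of only the groups compared, a replicate block, and leaving out each of 24 libraries. Leaving out 3 nM 2 h replicate 3 was added after the data were seen.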

Additional observations from a re-analysis of the deposited data

Results flagged for a closer look

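ESM1, the gene of the secreted proteoglycan endocan, stood on opposite sides of the untreated libraries at different doses of the same time, which was the only kind of result picked out for the members. At 8 h it averaged 16.64 TPM at 3 nM and 9.768 TPM at 0.2 nM, with every library above the 6 untreated ones, while at 0.01 nM it averaged 4.736 TPM, with every library below them. At 16 h it averaged 24.26 TPM at 3 nM, all above, and 4.251 TPM at 0.2 nM and 0.899 TPM at 0.01 nM, all below. At 24 h the means were 21.81 TPM at 3 nM, 1.829 TPM at 0.2 nM and 0.8012 TPM at 0.01 nM, on the same sides. Of all tested genes, 33.1%, 31.9% and 34.2% were above all untreated libraries at 3 nM at 8, 16 and 24 h, and 29.5% at 0.2 nM 8 h. Below them were 9.36%, 9.83% and 5.25% at 0.01 nM at those times, and 15.8% and 14.8% at 0.2 nM at 16 and 24 h. The share of genes on opposite sides at different doses of the same time was not counted. As a description, the log2 ratio of counts at 24 h was 3.88 (SE 0.252) for 3 nM over 0.2 nM. No p-value is given for the difference between the doses, since ESM1 was chosen with this pattern known, and the 3 nM libraries are also the deeper ones.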

How the results depend on the processing

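All values here are log2 fold changes of counts unless a count of genes is named, and the cause of a change with a setting was not tested. Over untreated set 1 alone, VEGFC at 24 h was −0.34 at 0.01 nM, −0.34 at 0.2 nM and −0.42 at 3 nM, and at 3 nM 16 h −0.12. Over set 2 alone it was 0.22 at 0.01 nM and 0.22 at 0.2 nM at 24 h and 0.13 at 3 nM 2 h, ESM1 at 0.01 nM 4 h was −0.46, and ADM was −0.26 at 0.01 nM 24 h, −0.38 at 3 nM 4 h, 0.12 at 0.01 nM 16 h and 0.23 at 3 nM 1 h. PCSK5 over set 2 alone was −0.10 at 0.2 nM 24 h and −0.07 at 3 nM 24 h, and ACADVL at 0.2 nM 24 h was 0.05. VEGFC at 3 nM 24 h was −0.17 with RLE size factors, with DESeq2 and in a fit of only the groups compared. For 0.2 over 0.01 nM at 24 h, no filter gave −0.84 for ADM and 1.17 for ESM1, DESeq2 gave 1.17 for ESM1, and limma gave −0.31 for ADM and 1.12 for ESM1 on log2(TPM + 0.1), and −0.20 and 0.64 on log2(TPM + 1). On log2(TPM + 0.1), limma gave −0.54 for ESM1 at 0.01 nM 4 h and −0.60 for ADM at 0.2 nM 4 h. On either TPM scale VEGFA was 0.01 for 3 over 0.2 nM at 24 h, −0.01 for untreated set 2 over set 1, 0.05 for 24 over 4 h and 0.00 for 16 over 8 h at 0.2 nM. On the same scales ACADVL was 0.11 and HADHA 0.08 at 0.2 nM 24 h, ARNT was 0.08 at 3 nM 24 h, and EGLN3 at 3 nM 4 h was 0.15 with the smaller and 0.11 with the larger pseudocount. For 3 over 0.2 nM at 24 h, limma passed 6693 genes on log2(TPM + 1), against 10125 with edgeR, and 35 listed genes on either scale, against 53 with edgeR. For untreated set 2 over set 1 it passed 22 and 21 listed genes with the smaller and larger pseudocount, against 37 with edgeR. Leaving out 1 library at a time moved VEGFC at 3 nM 24 h between −0.21 and −0.09, ESM1 at 0.01 nM 4 h between −0.71 and −0.47, and ESM1 at 0.2 nM 4 h between −0.84 and −0.57. Same-numbered libraries deviated together in 1 of the 9 comparisons, 0.2 over 0.01 nM at 24 h (r = 0.103, 0.2 and 0.121, each closest to its own number), where a replicate block gave 9289 genes, against 9290 without, and 58 listed genes, against 57, and changed no member's call. In the other 8 the numbers did not pair the libraries throughout (over all 45 pairs r was −0.189 to 0.284, with 16 closest to their own number). At 3 nM 24 h each library was closest to its own number in untreated set 2 (r = 0.043, 0.067 and 0.047), but not all were in set 1. With the block 13927 genes passed at 3 nM 24 h, against 13913 without. Leaving out 3 nM 2 h replicate 3, added after the data were seen, moved ESM1 at 3 nM 2 h to −0.77, against −0.96 with it. Shallow libraries limit ESM1 and ADM at 0.01 and 0.2 nM, where single libraries held as few as 3 and 8 counts.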
